A study of Mus musculus with 20 samples.

Results

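The luminal-pair regions are the stretches of mouse mammary chromatin that carried an ATAC-seq peak in both adult luminal cell types, luminal progenitor and mature luminal cells, and no peak in adult basal cells or in fetal mammary cells (fMaSC). ATAC-seq uses the Tn5 transposase to cut and tag accessible DNA. A peak marks a site with more cuts than background, summed over the nuclei of the sorted population. The regions were chosen by the presence or absence of peaks in the 4 peak lists of the normal cell types, after overlapping or touching peaks on the 19 autosomes and X had been joined. There were 4083 of them among 128797 joined regions, or 3.17%. All 4 normal populations were sorted from wild-type mammary glands of the C57BL6J strain, with 2 samples each: fMaSC from embryos at day 18 of gestation (E18), and basal, luminal progenitor and mature luminal cells from adults. Each peak list combines both samples of its type, so no value can be given per sample and no spread between mice can be stated. A further pair of lists, which the rule did not use, comes from PY230, a mouse mammary tumour line that was transplanted into syngeneic C57BL6J mice, with cells sorted from the tumours. One list holds 3208 regions called open in SOX10-high cells and is named with 3 luminal SOX10-high samples, and the other holds 15108 regions called closed in them and is named with 3 luminal SOX10-low samples. SOX10 is a transcription factor of the neural crest and of some mammary epithelial cells. The sources used here state neither what each list was compared with, nor whether normal samples entered it, nor how cells were sorted for SOX10, and PY230 is 1 line.

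The mammary duct has an inner luminal layer and an outer basal layer of contractile cells. Luminal progenitors give rise to the milk-secreting alveolar lineage, whereas most mature luminal cells sense oestrogen and progesterone and pass the signal on to their neighbours. Accessible sites that differ between cell types commonly lie away from gene starts, in enhancers that bind lineage factors. The coordinates below are those of the mm9 build, and gene names are not given because no annotation of that build was used here.

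Most luminal-pair regions had a higher fold in mature luminal cells than in luminal progenitors, and most luminal progenitor peaks were in the weaker part of their list. The values in this paragraph come from the lists that chose the regions and are a description. The fold of a peak, its enrichment over background as the authors' peak caller gave it, had a median of 9.47 in mature luminal cells (middle 50% of regions, 6.23 to 14.7) and of 5.40 in luminal progenitors (4.57 to 6.65). Over all nuclear peaks the medians were 8.47 and 6.86, so the mature luminal peaks of these regions lay above the middle of their list and the luminal progenitor peaks below it. Ranked within its own list, the typical mature luminal peak stood at the 57.6th percentile and the typical luminal progenitor peak at the 34.3rd. Below the median of the luminal progenitor list were 3077 regions (75.4%), and 2299 (56.3%) were above the median of the mature luminal list. Above the 75th percentile of the mature luminal list were 1229 regions, against 169 above that of the luminal progenitor list, and 2768 (67.8%) were at or below the 75th percentile of both. Since each list is made from many nuclei, fewer accessible cells and less accessible DNA per cell cannot be told apart.

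The ratio of the mature luminal to the luminal progenitor fold had a median of 1.67 and ran from 0.213 to 6.88. It was above 1 in 3397 regions and below 1 in 686. The excess was smaller on another scale. Every fold was, within 0.01 of a step, a whole multiple of a step that was fixed within a list, 0.249 for mature luminal and 0.208 for luminal progenitor peaks. Counted in steps, the median height was 38 for the mature luminal and 26 for the luminal progenitor peak, the median ratio was 1.39, and 2905 regions were higher in mature luminal cells. The order of the regions by ratio is the same on both scales. Across the 4083 regions the 2 folds were only weakly related (Spearman's rho 0.147, Pearson's r of the log2 folds 0.160), compared with a rho of 0.730 across the 27947 regions that had a peak in all 4 types. These coefficients are across regions of the same lists, and regions are not replicates. The luminal progenitor folds of the luminal-pair regions had quartiles of 4.57 and 6.65, against 4.99 and 11.0 in the whole luminal progenitor list. A narrow range can itself lower a coefficient, and the rule chose the regions from these lists. The lower rho therefore cannot show that accessibility in the luminal types is less linked at these regions.

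**Figure D1:**
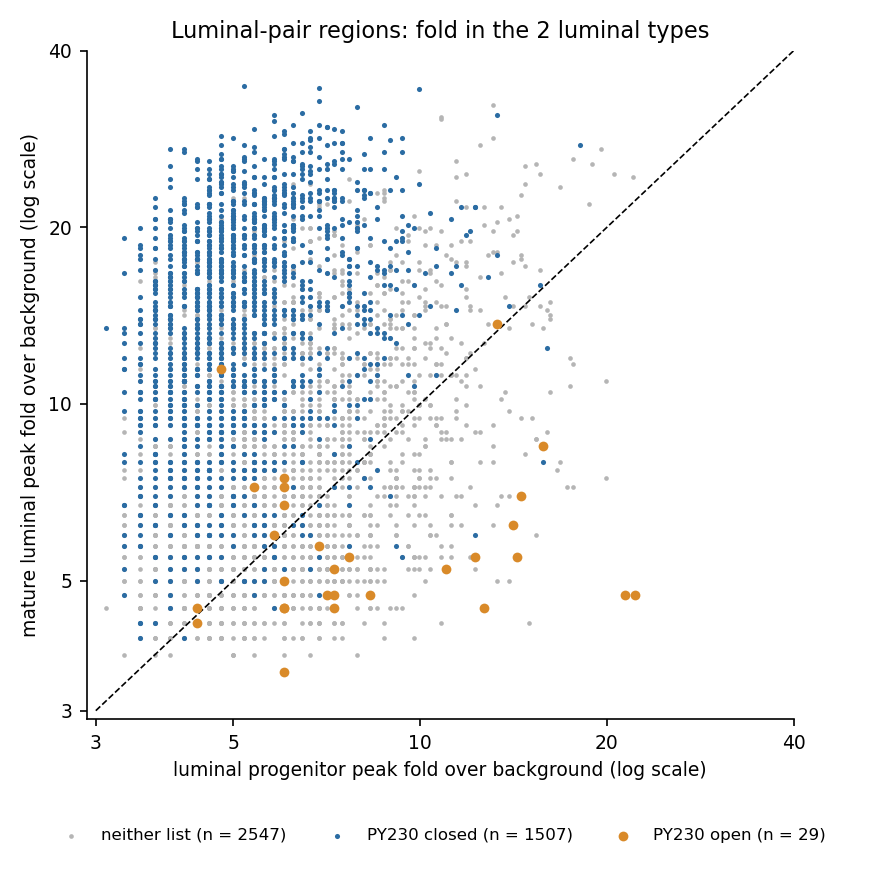
Each point is a luminal-pair region, placed by its luminal progenitor fold (x axis, log scale) and its mature luminal fold (y axis, log scale); folds fall on fixed steps, so points lie on a grid and later colours cover earlier ones. The dashed line marks equal folds. Blue regions (1507) are in the PY230 closed list and fill the upper left, orange regions (29) are in the open list and lie mostly below the line, and grey regions (2547) are in neither.

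The rule joins only peaks that overlap or touch, so the peaks of a luminal-pair region have to lie together. The overlaps and distances in this paragraph are therefore a description, in part fixed by the rule. A single peak of each type made up 4015 of the 4083 regions, and in these the peak centres were a median of 58.5 bp apart (middle 50%, 27.3 to 110 bp). In all 4083 regions the peaks shared at least 1 base, and the shared part had a median of 56.3% of the region. The mature luminal peak was the wider one in 2816 of the single-peak regions and the luminal progenitor peak in 1193. In 2226 of them the luminal progenitor peak lay wholly inside the mature luminal peak, and in 686 it was the other way round. Regions had a median width of 679 bp, against 403 bp for regions with a mature luminal peak alone and 1332 bp for regions with a peak in all 4 types. The widest region, on chromosome 6 from 135320579 to 135326675, was 6097 bp long and joined 2 luminal progenitor and 3 mature luminal peaks, with top folds of 9.35 and 11.7. The next widest lay on chromosome 15 from 101861696 to 101865519, where a single peak of each type covered 3824 bp with a luminal progenitor fold of 11.4 and a mature luminal fold of 9.71.

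Few regions were strong in both types. Only 83 (2.03%) were above the 75th percentile of both lists and 8 (0.196%) above the 90th. These counts come from the lists that chose the regions and are a description. Regions of all 4 types, which the rule leaves out, had higher median luminal progenitor and mature luminal folds, 10.6 and 12.2 against 5.40 and 9.47. The region with the best lower rank lay on chromosome 19 from 24501172 to 24502215 (mm9) and had a luminal progenitor fold of 20.6 and a mature luminal fold of 24.7. Its nearest fMaSC or basal peak was 48761 bp away. Second was a region on chromosome 6 from 108362724 to 108364349, with folds of 22.03 and 24.4, followed by one on chromosome 12 from 25850338 to 25851404, with folds of 19.5 and 27.1. The next places were taken by chromosome 8 from 28277882 to 28279457 (18.9 and 25.7) and chromosome 18 from 21373413 to 21374485 (18.7 and 21.9). None of these 5 regions was in a PY230 list. At the 2 ends of the range stood regions with a weak partner. The highest luminal progenitor fold, 22.2 on chromosome 5 from 81326150 to 81327807, came with a mature luminal fold of 4.73. The highest mature luminal fold, 34.9 on chromosome 18 from 13869281 to 13870108, came with a luminal progenitor fold of 5.20.

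Membership depends on where each list stops. The weakest luminal progenitor peak had a fold of 3.12 and the weakest mature luminal peak one of 3.49, and 280 regions held a luminal progenitor peak within 3 steps of that limit. A mature luminal peak within 3 steps of its limit was present in 114. Just outside the rule were 112 regions with both luminal peaks and a basal peak within 3 steps of the lowest basal fold, and 51 with such an fMaSC peak. The median luminal progenitor and mature luminal folds of these 112 regions were 5.82 and 9.47, and those of the 51 were 5.40 and 7.72. Among the members, 21 had an fMaSC or basal peak within 100 bp without touching it and 612 within 1 kb, while 1150 were more than 10 kb from any such peak. The median distance was 4578 bp. When only the 30015 strongest peaks of each list were used, 2832 regions met the rule, but they were largely others: 625 of them overlapped a region chosen from all peaks, which is 15.3% of the 4083 and 22.1% of the 2832. Peaks at or above the median fold of their list gave 1909 regions, of which 660 were shared, or 16.2% of the 4083 and 34.6% of the 1909.

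The deposited UAR and URR lists, which are named for 1 normal cell type each and whose abbreviations the labels do not expand, come from the same samples as the peaks, so their overlaps are a description. Of 3282 mature luminal UARs, 767 (23.4%) overlapped a luminal-pair region, and 782 (19.2%) of the regions held one, against 2.96% of all joined regions and 13.9% of mature-luminal-only regions. These 782 regions had a median mature luminal fold of 19.2 and a median luminal progenitor fold of 4.99. Of 306 luminal progenitor UARs, 13 (4.25%) overlapped 14 regions (0.343%, against 0.273% of all joined regions), which had a median luminal progenitor fold of 14.3 and a mature luminal fold of 6.97. No fMaSC UAR, no luminal progenitor URR and no mature luminal URR overlapped a luminal-pair region, against 1.06%, 0.0225% and 0.904% of all joined regions. The rule leaves out fMaSC peaks and requires both luminal peaks, so these counts of 0 are not an independent result. The fMaSC URRs met 6 regions (0.147%, against 0.220% of all joined regions) and the basal URRs 1 (0.0245% against 0.0660%). The basal UARs met 3 (0.0735% against 4.80%), although none of these regions had a basal peak.

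The PY230 lists allow a comparison with lists that the rule did not use. Luminal-pair regions were often closed in SOX10-high tumour cells. Of the 4083 regions, 1507 (36.9%, exact 95% binomial interval 35.4 to 38.4%) overlapped the closed list, against 11.0% of all joined regions, and 29 (0.710%, 0.476 to 1.02%) overlapped the open list, against 1.88% of all joined regions. No region overlapped both. The open share was 0.353% with the 30015 strongest peaks of each list and 0.419% with peaks at or above the median fold. The closed share exceeded that of all other joined regions, 10.1%, by 26.8 points (95% Newcombe interval of the difference 25.3 to 28.3) and was higher on all 20 chromosomes. Intervals in this and later paragraphs are over regions: they cover counting error, treat neighbouring regions as independent and say nothing about differences between tumours. Most overlaps were complete: 1249 of the 1507 regions were covered from end to end.

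**Figure D2:**
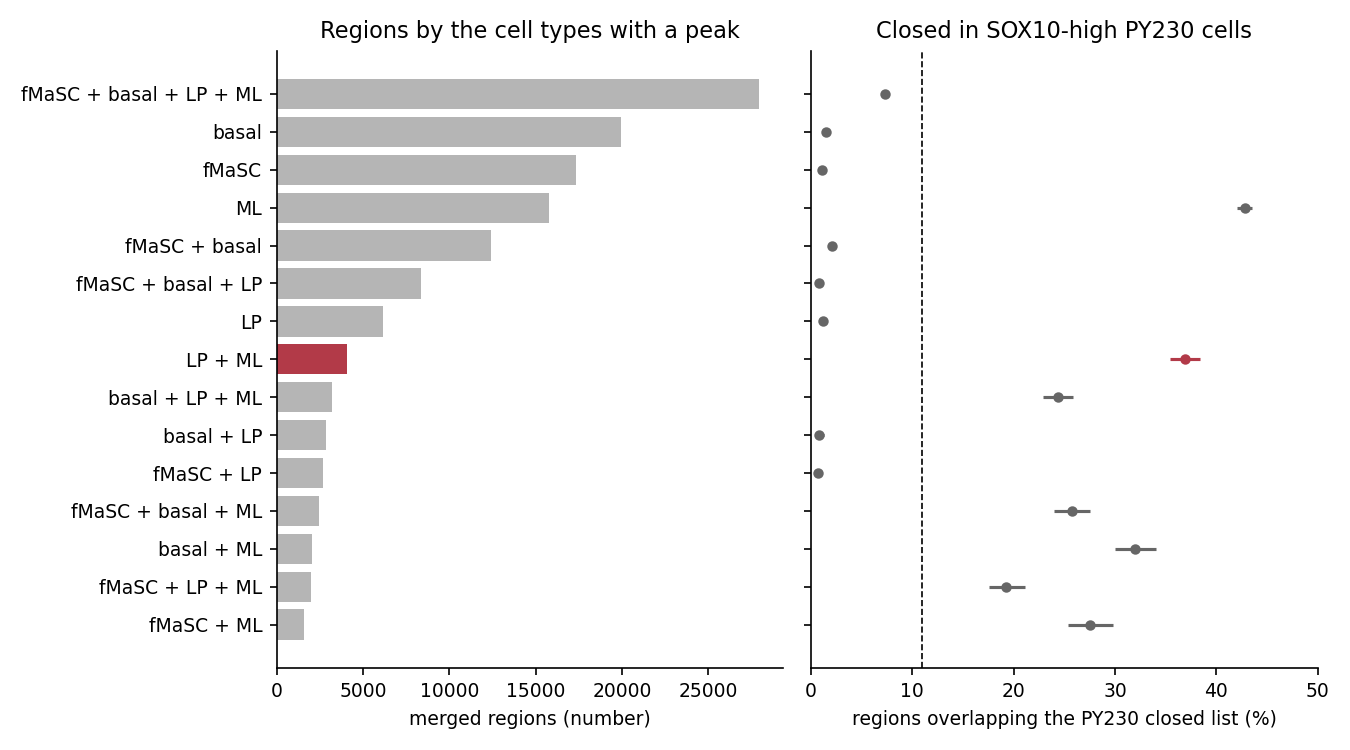
Left, number of joined regions for each combination of cell types with a peak (LP, luminal progenitor; ML, mature luminal); the luminal-pair regions, 4083, are in red. Right, share of each class that overlaps the PY230 closed list with exact 95% binomial intervals; the dashed line marks the 11.0% of all joined regions. Classes with a mature luminal peak lie to the right of the line, except regions with peaks in all 4 types.

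The closed share differed with the other types that had a peak at the site. It was 42.8% (42.0 to 43.6%) in the 15777 regions with a mature luminal peak alone, 1.14% (0.890 to 1.44%) in the 6136 regions with a luminal progenitor peak alone and 7.33% (7.03 to 7.64%) in the regions of all 4 types. Luminal-pair regions were thus 35.8 points above luminal-progenitor-only regions (34.3 to 37.3) and 29.6 points above regions of all 4 types (28.1 to 31.1), in each case on 20 of 20 chromosomes. The first was 22.9 points with the 30015 strongest peaks of each list, and the second 18.6 points without regions holding a mature luminal UAR. Adding a basal peak to the luminal pair went with a share of 24.3% in 3205 regions, 12.6 points lower than in the pair (10.5 to 14.7). With an fMaSC peak in its place the share was 19.3% in 1996 regions, 17.6 points lower (15.3 to 19.9). Against mature-luminal-only regions the pair differed by -5.87 points (-7.53 to -4.20, lower on 19 of 20 chromosomes). The size of this last difference moved with the choice of regions. It was -39.3 points with the 30015 strongest peaks of each list, -36.3 points with peaks at or above the median fold, -23.7 points for regions between 500 and 1500 bp wide, -11.6 points without regions holding a mature luminal UAR, and -3.05 points when luminal-pair regions with an fMaSC or basal peak within 1 kb were left out.

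Within the luminal-pair regions, the closed share rose with the ratio of mature luminal to luminal progenitor fold. The regions were divided into 5 groups of nearly equal size by this ratio. In the group with the lowest ratios (median 0.863), 42 of 817 regions, or 5.14% (3.73 to 6.89%), were closed. The share was 12.3% (10.1 to 14.7%) in the next group, 27.8% (24.7 to 31.0%) in the middle one and 53.9% (50.4 to 57.4%) in the one after. In the group with the highest ratios (median 3.73) it reached 85.4% (82.8 to 87.8%), or 698 of 817. Highest and lowest group differed by 80.3 points (77.2 to 82.9), with the highest above the lowest on 20 of 20 chromosomes. The lowest group lay under the 11.0% of all joined regions and the highest far above it. Other measures moved with the ratio. The median mature luminal fold was 5.48 in the lowest group and 18.7 in the highest, and the median luminal progenitor fold 6.86 and 4.78. These groups therefore do not separate the ratio from the mature luminal fold alone. The median width was 609 bp in the lowest group, 529.5 bp in the next and 877 bp in the highest, and mature luminal UARs were present in 3 regions of the lowest group and 640 of the highest. With regions of 500 to 1500 bp alone, the shares of the lowest and highest groups were 5.55% and 85.3%. Among regions without a mature luminal UAR they were 5.04% (41 of 814) and 70.1% (124 of 177), with 12.3%, 27.5% and 51.0% between.

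**Figure D3:**
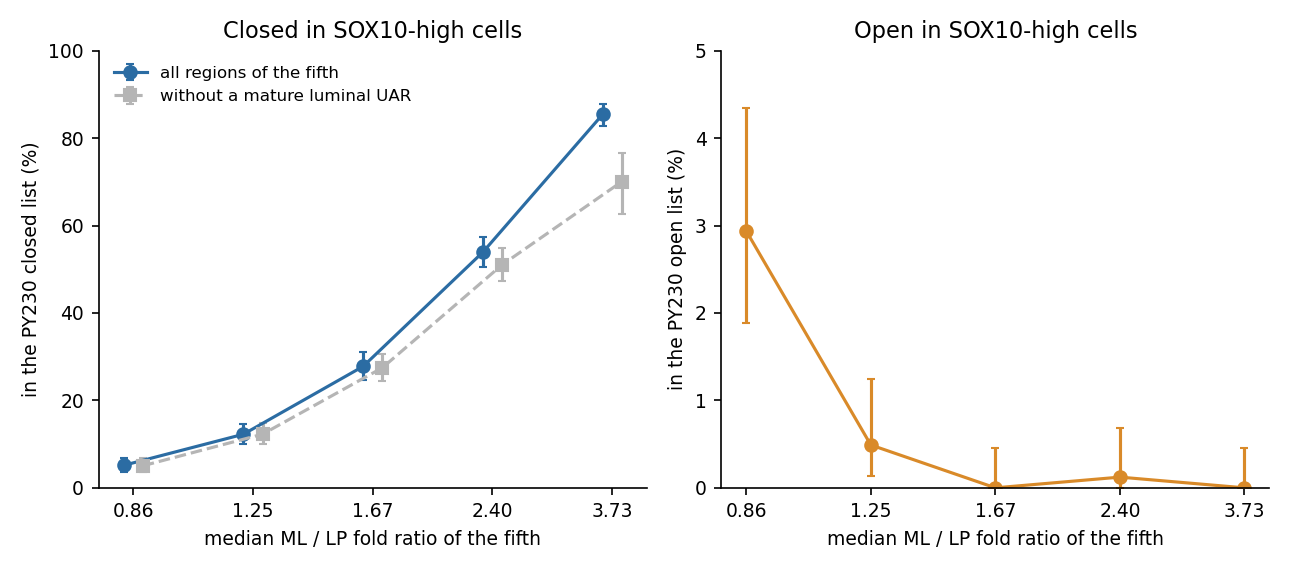
Share of luminal-pair regions in the PY230 closed list (left) and open list (right) in 5 groups by the ratio of mature luminal (ML) to luminal progenitor (LP) fold; the x axis gives each group's median ratio, and bars are exact 95% binomial intervals over regions. The closed share climbs from 5.14% to 85.4% (grey squares: regions without a mature luminal UAR, 5.04% to 70.1%), and the open share falls from 2.94% to 0.

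At like mature luminal fold, the classes of regions still differed in closed share. Regions were placed into 5 strata by mature luminal fold, with limits at the quartiles and the 90th percentile of that list (5.98, 8.47, 13.7 and 20.2). From the weakest to the strongest stratum, luminal-pair regions were closed in 6% (48 of 800), 17.1%, 38.4%, 64.3% and 84.6% of cases. Mature-luminal-only regions were closed in 23.9%, 41.7%, 68.6%, 87.0% and 95.9%. The difference, pair minus mature-luminal-only, was -17.9 points (-19.7 to -15.7) in the weakest stratum, -24.6 points (-27.3 to -21.8) in the next, -30.2 points (-33.4 to -26.9) in the middle one and -22.7 points (-26.7 to -18.6) between folds of 13.7 and 20.2, each time with the pair lower on 20 of 20 chromosomes. In the strongest stratum it was -11.3 points (-16.2 to -1.11), which rested on 49 mature-luminal-only regions. This interval reached 0 under 3 of the alternatives tried. These were peaks within 500 bp joined, luminal-pair regions without an fMaSC or basal peak within 1 kb, and widths of 500 to 1500 bp. The difference moved to -47.0 points in the middle stratum and -36.6 points in the strongest when each list was cut to its 30015 strongest peaks, and with peaks at or above the median fold to -46.7 and -34.3 points. These cuts also change which regions form each class. The weakest stratum held 6300 of 15777 mature-luminal-only regions and 800 of 4083 luminal-pair regions. Within a stratum they were also narrower in each case, for example 571 bp against 674 bp at the median in the middle stratum. With widths of 500 to 1500 bp the difference in the middle stratum was -33.0 points (-36.5 to -29.3).

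Sites shared with further types were closed less often than the luminal pair in most strata of mature luminal fold. In the middle stratum, regions with an additional basal peak were closed in 22.4% of cases, 16.0 points below the pair (12.0 to 19.8), and regions with an additional fMaSC peak in 23.2%, 15.2 points below (10.6 to 19.6). Between folds of 13.7 and 20.2 the corresponding differences were 17.3 points (12.0 to 22.6) and 20.4 points (13.8 to 26.9). In the weakest stratum the differences were 2.60 points (0.340 to 4.80) and 2.26 points (-0.230 to 4.55), and the second of these intervals holds 0. Regions of all 4 types varied little with mature luminal fold, with closed shares between 3.44% and 9.02% in the 5 strata. They were also wider, with a median of 1870.5 bp in the strongest stratum against 987.5 bp in the pair.

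**Figure D4:**
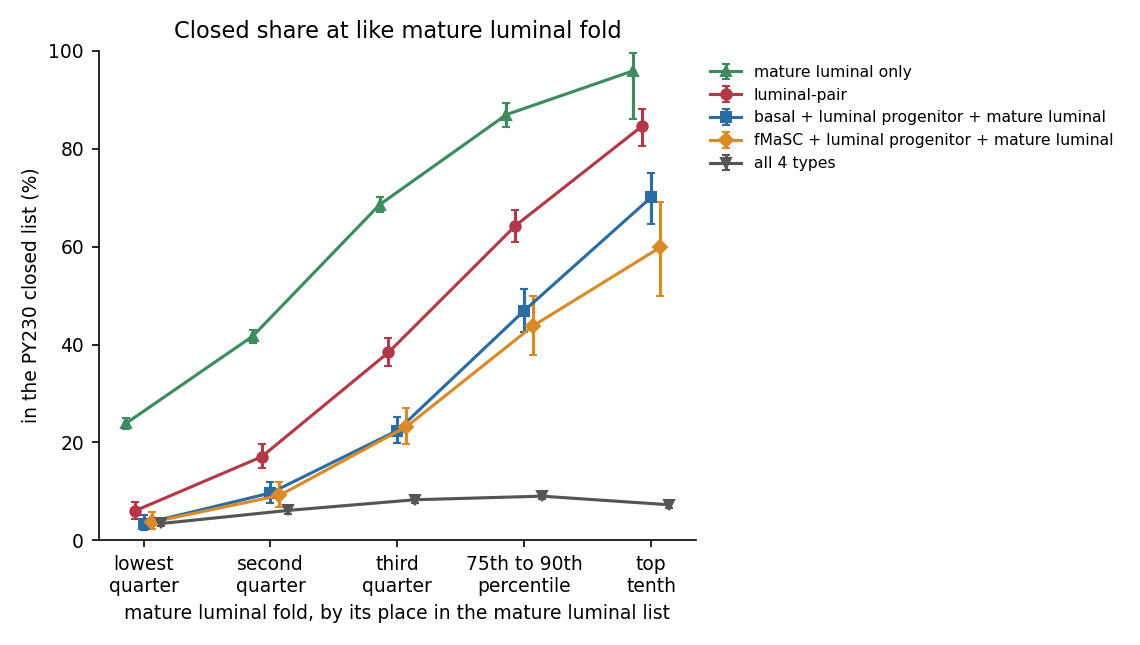
Share of regions in the PY230 closed list (y axis, percent, with exact 95% binomial intervals) by the place of their mature luminal fold in the mature luminal list (x axis), for 5 classes of regions. In each stratum the luminal-pair share (red) lies below that of mature-luminal-only regions (green) and above those of the classes with a basal or fMaSC peak, where 1 difference in the weakest stratum has an interval that holds 0; regions of all 4 types stay between 3.44% and 9.02%.

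The luminal progenitor fold showed the opposite relation inside the luminal pair. The regions were split by luminal progenitor fold into a lowest (3.12 to 4.57), a middle (4.78 to 5.82) and a highest group (6.03 to 22.2). Over all strata the closed shares were 44.5% (41.8 to 47.3%), 41.3% (38.6 to 44.0%) and 26.9% (24.7 to 29.2%). In each stratum of mature luminal fold the share was lowest in the highest group. In the weakest stratum the shares were 8.44%, 6.10% and 2.85%, and in the next 28.1%, 16.2% and 7.21%. In the middle stratum of mature luminal fold the shares were 56.3%, 41.9% and 20.6%, and between folds of 13.7 and 20.2 they were 81.9%, 74.1% and 43.0%. In the strongest stratum all 50 regions of the lowest group were closed (exact interval 92.9 to 100%), compared with 150 of 204 regions of the highest group (73.5%, 66.9 to 79.4%). Regions above the 75th percentile of both lists were closed in 16 of 83 cases (19.3%, 11.4 to 29.4%). Where the mature luminal peak alone was above that percentile, 852 of 1146 regions were closed (74.3%, 71.7 to 76.9%).

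Open regions were rare and leaned to the luminal progenitor side. The 29 regions in the open list had a median luminal progenitor fold of 7.27 and a median mature luminal fold of 5.23, and the luminal progenitor fold was the higher one in 21 of them. For the 1507 closed regions the medians were 4.99 and 14.7, and the mature luminal fold was higher in 1474. By the ratio of folds, 24 of the 29 open regions were in the lowest of the 5 groups (2.94%, 1.89 to 4.34%), 4 in the next and 1 in the one below the highest. The middle and highest groups had none among 817 regions each, which allows a share of up to 0.367% (3 regions of the total). Lowest and highest group differed by 2.94 points (1.87 to 4.33), with the lowest above the highest on 11 of 20 chromosomes. On the others neither group had an open region. The open share of the luminal pair differed by -8.95 points (-9.75 to -8.18) from that of luminal-progenitor-only regions, which was 9.66%, and by -14.4 points with regions of 500 to 1500 bp. It was 0.552 points (0.324 to 0.864) above that of mature-luminal-only regions, 0.158%, but 0.270 points above with the 30015 strongest peaks of each list and 0.345 points with peaks at or above the median fold. Against regions of all 4 types, at 0.404%, it was higher by 0.306 points (0.0757 to 0.621), but on only 9 of 20 chromosomes, it was 0.470 points without regions holding a mature luminal UAR, and with regions of 500 to 1500 bp the interval reached below 0. The pair with a basal peak added had 0.499%, and this difference, 0.211 points (-0.167 to 0.574), was not detectable.

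Single sites show both ends. The closed list's own score was infinite at 2 luminal-pair regions in the authors' deposited table. The first, on chromosome 1 from 177169220 to 177170788, had luminal progenitor and mature luminal folds of 6.65 and 24.7 and lay 67868 bp from the nearest fMaSC or basal peak. The second, on chromosome 19 from 47589137 to 47590216, had folds of 6.86 and 25.2, and both regions held a mature luminal UAR. At the other end, the region on chromosome 13 from 5613603 to 5615064 had luminal progenitor and mature luminal folds of 21.4 and 4.73, held a luminal progenitor UAR and was in the open list, with a score of 185 in the authors' deposited table. The highest open score in a luminal-pair region, 292 in the authors' deposited table, belonged to chromosome 4 from 46604814 to 46605431. Its folds were moderate and close to each other, at 5.40 and 7.22, so the open regions were not all sites of strong luminal progenitor peaks. No source used here gives the scale of these scores.

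Distance from other types' peaks went with the closed share too. Regions with an fMaSC or basal peak within 1 kb were closed in 20.9% of 612 cases (17.8 to 24.4%), those with the nearest such peak 1 to 10 kb away in 36.0% of 2321 (34.0 to 38.0%) and those farther off in 47.3% of 1150 (44.4 to 50.2%). The median mature luminal fold of these 3 groups was 7.97, 9.22 and 11.0, and its part in the difference was not tested. A closed mature-luminal-only region within 10 kb was present at 570 luminal-pair regions, of which 52.98% (48.8 to 57.1%) were closed. Where mature-luminal-only regions lay within 10 kb but none was closed, the share was 32.2% of 628 (28.5 to 36.0%), and with none in reach it was 34.8% of 2885 (33.0 to 36.5%). Median mature luminal folds were 11.5, 9.34 and 9.22 in these groups, and again their part was not tested.

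Luminal-pair regions were spread over all chromosomes, at 2.59% to 3.86% of the joined regions of a chromosome. Their closed share had a median of 37.0% over the 20 chromosomes and was lowest on X, where 21 of 105 regions were closed (20.0%, 12.8 to 28.9%), against 37.4% (35.8 to 38.9%) on the autosomes. Mature-luminal-only regions also had their lowest closed share on X, at 33.8%. The luminal-pair regions on X had a lower median ratio of mature luminal to luminal progenitor fold, 1.34 against 1.69 on the autosomes, and were narrower, with a median of 514 bp against 684 bp. Whether these values bear on the low share was not tested.

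**Figure D5:**
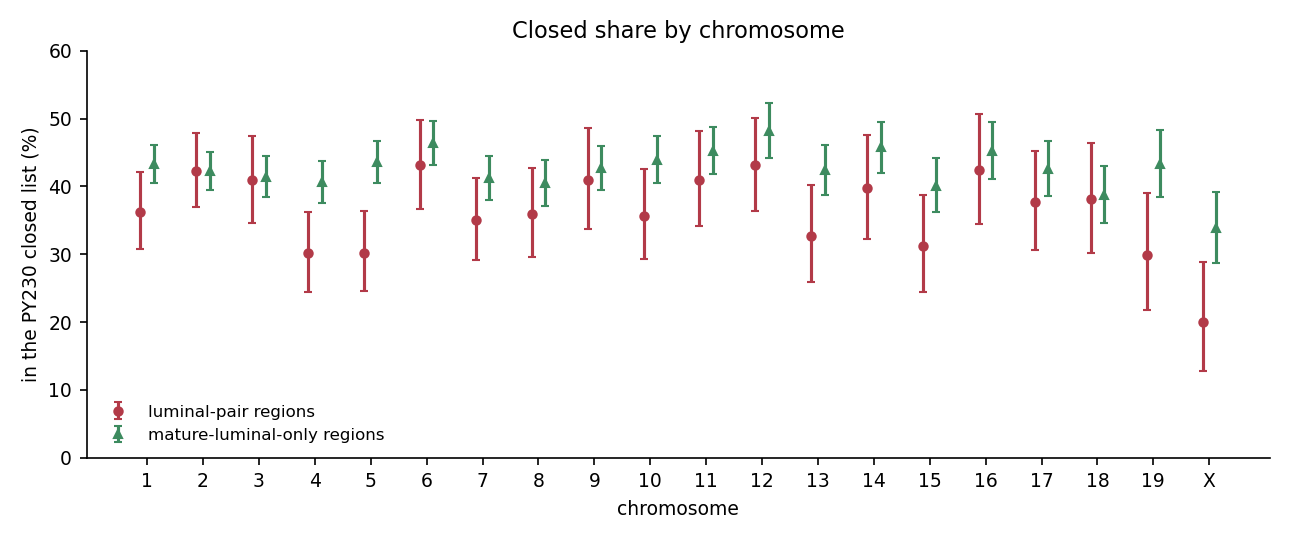
Share of luminal-pair regions (red) and of mature-luminal-only regions (green) in the PY230 closed list on each chromosome, with exact 95% binomial intervals over regions. The luminal-pair share is lower on 19 of 20 chromosomes, and both classes are lowest on X (20.0% and 33.8%).

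The nearest joined region was most often one open in all 4 types, for 1011 luminal-pair regions (24.8%, against 21.8% over all joined regions). Next came mature-luminal-only regions, for 734 (17.98% against 11.8%), and another luminal-pair region was nearest in 307 cases (7.52% against 3.22%). Basal-only and fMaSC-only regions were nearest less often than over all joined regions, at 8.40% against 15.8% and 9.23% against 12.9%. These shares are descriptions, since the classes come from the lists that chose the regions. Another luminal-pair region lay within 10 kb of 615 (15.1%). The same-class share was 28.0% for mature-luminal-only, 23.4% for luminal-progenitor-only and 45.8% for all-4-type regions, in classes of other sizes. With a basal peak added to the pair it was 13.9%, and with an fMaSC peak added 8.17%. The luminal-pair neighbours formed 337 adjacent pairs, of which both were closed in 53 (15.7%), 1 in 93 (27.6%) and neither in 191 (56.7%). Over all luminal-pair regions 36.9% were closed, which is not the share among the regions in these pairs. Whether closed regions paired more often than the share among them implies was not tested. The densest 1 Mb window held 18 luminal-pair regions on chromosome 6, from 134665782 to 135336521, among 122 joined regions. It includes the widest region of the set, 8 of its 18 regions were closed, and its mature luminal folds ran from 3.74 to 17.4. The next windows held 14 regions on chromosome 1 from 120539384 to 121537005, where 3 were closed, and 13 on chromosome 17 from 47565673 to 48543847, where 5 were closed. None of the regions in these 3 windows was in the open list.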

How the data were processed

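Nuclei of sorted cells were tagged with Nextera reagents and sequenced in pairs, per the labels' protocols. FastQC, MACS2 2.1.1, SICER, Bowtie 0.12.8, bedtools 2.20.1, SAMtools 1.3.1 and mm9 are named, without roles, in the submitters' processing notes. Duplicate removal, Tn5 offsets and depth per sample: not given in the sources used here. A missing offset would move peak edges by a few bases. Each deposited peak carries the authors' fold (a ratio) over background, called on 2 samples together at a q-value of 0.001, per the list names. Each UAR, URR and PY230 region carries a score deposited by the authors, of unknown scale. Coordinates are 1-based: peak lists were kept as deposited, and the lists on a 100 bp grid were moved by 1 base.

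Peaks on the mitochondrial genome were dropped. Overlap means at least 1 bp, and a joined region takes its highest fold per type. Shares have exact (Clopper-Pearson) and differences Newcombe 95% intervals; a difference was called where its interval leaves out 0. No test over samples was possible. The named regions are the 5 with the highest lower rank, the 3 of highest fold, width or PY230 score, and the 3 densest 1 Mb windows, of which those a result turns on are printed. Members, classes and tests were chosen with earlier results of these data known, and the ratio groups, strata and subsets after the values were seen. Python 3.11.15, pandas 2.3.3, scipy 1.17.1 and statsmodels 0.14.6 were used, and merging, overlaps and intervals were tested on simulated data. Alternatives were stronger peaks, autosomes only, joining within 500 bp, distance from other peaks, 50% coverage, a width of 500 bp and widths of 500 to 1500 bp. Motif and gene list analyses were not run because no mm9 genome or annotation was used.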

Additional observations from a re-analysis of the deposited data

How the results depend on the processing

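Of 80 recomputed differences (9 differences under 8 or 9 settings), 76 kept their direction and their side of 0, 4 kept the direction with an interval that reached 0, and none reversed. The first of the 4 was the difference in open share from regions of all 4 types with regions of 500 to 1500 bp (0.238 points). The others were the difference in closed share from mature-luminal-only regions in the strongest stratum of mature luminal fold. It was -10.5 points with peaks within 500 bp joined and -8.74 points with regions of 500 to 1500 bp. Without luminal-pair regions near fMaSC or basal peaks it was -10.2 points, a filter put on the luminal-pair regions alone. The last 3 were computed after seeing the data. The number of luminal-pair regions was 1909 with peaks at or above the median fold. Their closed share was 24.6% with the strongest peaks, 29.02% with peaks at or above the median fold, 38.7% with peaks within 500 bp joined, 39.7% without an fMaSC or basal peak within 1 kb, 43.5% with regions of 500 to 1500 bp and 25.4% without a mature luminal UAR, a setting added after seeing the data. Their open share was 0.353% with the strongest peaks and 0.419% with peaks at or above the median fold. With stronger peaks alone, the regions compared were largely others. Of the 2832 luminal-pair regions from the strongest peaks, 625 overlapped a region chosen from all peaks. Of the 1909 from peaks at or above the median fold, 660 did. A luminal-pair region that keeps only its mature luminal peak then counts as mature-luminal-only. A direction kept under these settings is therefore not a repeat on the same regions. The cause of the shifts in share was not tested. The closed share was 36.9% both as reported and with every region set to 500 bp, 37.4% on autosomes only and 36.8% with at least 50% of the region covered. These settings changed the regions little, so directions kept under them add little to the count of 76. No paired analysis was possible because each list combines its samples, and no sample could be left out for the same reason. The motif alternative was not run. Depth per sample is unknown, so a missing peak may be a site below the limit of its list.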
